A study of Mus musculus with 8 samples.

Results

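The triggering receptors expressed on myeloid cells and their signaling partners were followed in single CD45+ cells from E0771 tumors, a mouse mammary carcinoma grown in the mammary fat pad of C57BL/6 mice. The members were chosen by name, as 5 receptor genes (Trem1, Trem2, Trem3, Treml2 and Treml4), the adaptor genes Tyrobp and Hcst, and the kinase gene Syk, which makes 8 of the 32285 genes counted. The tumors were taken on day 18 and came from the parental E0771 line (2 mice) or from E0771-Res1 (3 mice) and E0771-Res2 (3 mice), 2 lines made from E0771 tumors that had relapsed after paclitaxel with anti–PD-1. Each resistant line is a single derivative, so a difference between lines cannot be told apart from a difference between derivations, and no treatment is named for the mice sampled here. The parental mice were those numbered 1 and 3, and another parental mouse of the study was not analysed here.

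The receptors are single-span membrane proteins with 1 immunoglobulin-like domain, and most of them have no signaling motif of their own. TREM1 amplifies inflammatory responses of monocytes and neutrophils, whereas TREM2 binds lipids, lipoproteins and cell debris and is known for phagocytosis and lipid handling in macrophages and microglia. Both signal through the adaptor DAP12, encoded by Tyrobp, whose phosphorylated immunoreceptor tyrosine-based activation motif recruits the kinase SYK. DAP10, encoded by Hcst, carries a motif that recruits PI3K and is the partner of NKG2D on NK and T cells.

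The receptor genes are neighbors. In the GRCm38 (mm10) annotation, Trem1, Trem3, Treml4, Treml2 and Trem2 follow each other on the plus strand of chromosome 17 within 121.38 kb. Trem1 runs from 48232768 to 48246924, Trem3 from 48247777 to 48258841, Treml4 from 48264295 to 48275360, Treml2 from 48299498 to 48312533 and Trem2 from 48346401 to 48354147. Chromosome 7 carries Tyrobp (plus strand, 30413760 to 30417585) and Hcst (minus strand, 30417712 to 30419854), so that the ends of these adaptor genes are 126 bases apart without overlapping. Chromosome 13 carries Syk (plus strand, 52583173 to 52648792). All are protein-coding genes.

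The start regions of Trem1 and Trem2 are shown because these receptors moved in opposite directions between monocytes and macrophages. Each sequence holds 250 bases before and 50 bases after the RefSeq start site (GRCm38.p6, plus strand, chromosome 17 from 48232489 to 48232788 for Trem1 and from 48346151 to 48346450 for Trem2), and 5 of the 8 members had an entry. Capitals mark matches on either strand to GAGGAA (the core of PU.1 sites), TGANTCA (a looser pattern than the AP-1 site, with any base at its center) and TTGCNNAA (C/EBP).
Trem1: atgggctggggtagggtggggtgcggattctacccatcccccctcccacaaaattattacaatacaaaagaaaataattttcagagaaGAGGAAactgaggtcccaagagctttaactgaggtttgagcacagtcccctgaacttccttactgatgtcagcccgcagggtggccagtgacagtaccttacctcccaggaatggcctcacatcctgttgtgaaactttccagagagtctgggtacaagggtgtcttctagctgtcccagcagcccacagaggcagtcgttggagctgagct
Trem2: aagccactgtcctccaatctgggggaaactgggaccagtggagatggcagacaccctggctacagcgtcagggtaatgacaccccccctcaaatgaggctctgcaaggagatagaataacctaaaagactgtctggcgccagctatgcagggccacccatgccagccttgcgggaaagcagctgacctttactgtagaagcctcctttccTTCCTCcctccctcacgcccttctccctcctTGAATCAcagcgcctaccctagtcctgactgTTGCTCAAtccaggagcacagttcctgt
The Trem1 window held 1 match to GAGGAA and none to the other motifs, whereas the Trem2 window held 1 match to each. The 3 matches in the Trem2 window did not overlap, and that to GAGGAA lay on the reverse strand. That to TGANTCA reads TGAATCA, with A at the center, where the usual AP-1 site has C or G. It is therefore a match to the looser pattern only. Of all 32851 promoter windows of this length, 28.3% held GAGGAA, 7.81% TGANTCA and 10.8% TTGCNNAA. Neither window held ACGTG, the core of hypoxia response elements, or CANGTG, the E-box of MiT factors, which 19.6% and 44.9% of all windows held. These matches describe letters and not bound sites.

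Cells were assigned to classes by counts of unique molecular identifiers (UMIs) per cell, with no member used. Of 11430 deposited cells, 10605 had 500 to 6000 genes and under 10% mitochondrial UMIs. Monocytes had at least 5 Ly6c2 and at most 1 C1qa UMIs (2710 cells), macrophages at least 10 C1qa UMIs (2341 cells) and intermediate cells 2 to 9 (2092 cells). All of these had under 2 genes of each lymphoid class. Only monocytes were also limited to under 2 of the dendritic class genes. Of 4 such genes tested, 3 were higher and 1 lower in macrophages than in monocytes. Dendritic cells (247), T cells (426) and NK cells (172) had at least 2 of their own genes, only 13 B cells were found, and 2604 cells met no definition. Dendritic cells also had at most 1 C1qa and under 5 Ly6c2 UMIs, and the lymphoid classes at most 1 C1qa and at most 1 Csf1r UMI. Every mouse had at least 10 cells in each class other than B cells. Cells of the mice were tagged, pooled before the libraries were made and separated again by tag, and the 8 mice held 5036667 to 18894504 UMIs, and the median per kept cell was 5589 to 7001 in E0771-Res2 and 7631 to 8160 in the other mice, so that definitions by UMI counts were applied at unequal depth between the lines. Macrophages had a median of 9463 UMIs and monocytes 7153. Markers not used for the classes followed the names. The macrophage markers were C1qb, C1qc, Adgre1, Mrc1, Apoe and Cd81. C1qb and C1qc belong to the same complement component as C1qa, which defined the classes, so they are not independent of the definition. All 6 macrophage markers were higher and all 6 monocyte markers lower in macrophages than in monocytes, and the 8 summed dendritic markers were at 32875 to 40543 CPM (counts per 1000000 UMIs of a class in a mouse) in dendritic cells against 5379 to 23664 in monocytes and macrophages. The 8 neutrophil markers summed to 126 to 266 CPM in monocytes, 67.5 to 116 CPM in macrophages and 97.5 to 835 CPM in the cells of no class. Of this sum in monocytes 90.4 to 117 CPM came from Csf3r, which monocytes also express, whereas Ngp had no UMI, Ly6g 3 UMIs and Cxcr2 9 UMIs in all monocytes together.

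Trem1 was highest in monocytes and fell along the C1qa count, whereas Trem2 rose along it. Trem1 was at 23.1 to 66.8 CPM (median 40.1) in the monocytes of the 8 mice, at 6.75 to 54.9 (median 23.0) in intermediate cells and at 2.79 to 11.1 (median 6.51) in macrophages. No macrophage value of Trem1 reached the lowest monocyte value. The cells of no class, which stand outside this order, had 12.0 to 66.2 CPM of Trem1 (median 24.4) on 341 UMIs. Their neutrophil markers reached 835 CPM, and the part of these in Trem1 was not tested. Trem2 was at 65.1 to 114 CPM (median 82.1) in monocytes, 75.0 to 193 (median 130) in intermediate cells and 140 to 488 (median 370) in macrophages. The macrophage value of every mouse lay above all 8 monocyte values, and each mouse had the same order of the 3 classes for Trem1 and the reverse order for Trem2. In dendritic, T and NK cells Trem1 rested on 7, 13 and 14 UMIs in all, which is too few to order these classes, and Trem2 was at medians of 13.8, 26.8 and 34.1 CPM with overlapping ranges.

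**Figure D1:**
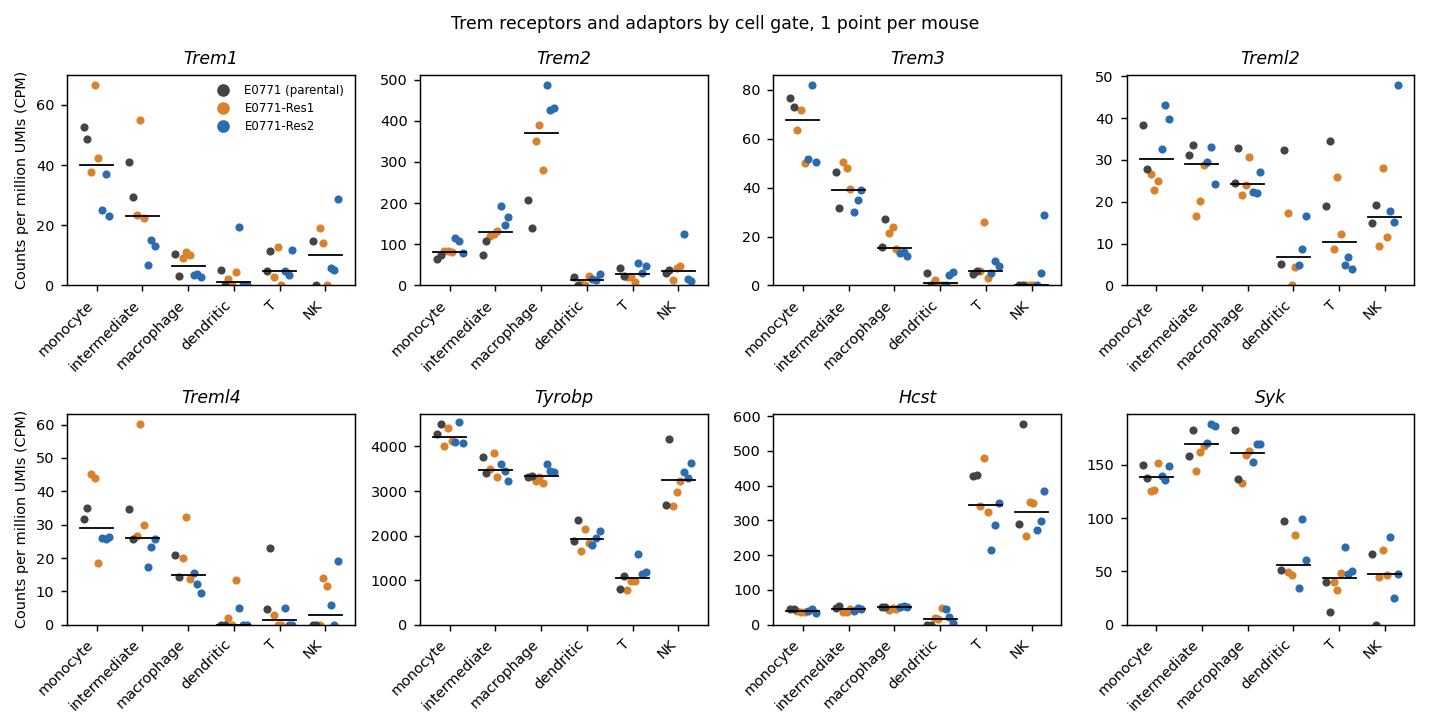
CPM of each of the 8 genes in 6 cell classes, with 1 point per mouse colored by tumor line and a bar at the median of the 8 mice; each panel has its own linear axis from 0. Trem1 and Trem3 are highest in monocytes, Trem2 in macrophages, and Hcst in T and NK cells (medians 345 and 324 CPM).

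Compared within mice, macrophages differed from monocytes in Trem1 by -2.72 on the log2 scale (SE 0.15, adjusted p = 7.07e-12, edgeR quasi-likelihood test with mouse as a block, lower in 8 of 8 mice). All 3 neutrophil markers tested were lower in macrophages too (median -1.29), and their part in the Trem1 value was not tested. Trem2 was higher by 1.76 (SE 0.10, edgeR adjusted p = 9.32e-12, higher in 8 of 8 mice). Of 9435 genes tested in this comparison, 55.6% passed an adjusted p of 0.05, 27% as higher and 28.6% as lower in macrophages. The call of a single member is therefore not unusual here, and its size carries the comparison. Trem1 lay between -2.91 and -2.47 and Trem2 between 1.68 and 1.95 over 20 settings, the one reported and its alternatives.

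Trem3, an activating receptor that pairs with DAP12 in mice, was at 50.04 to 82.2 CPM in monocytes and 11.9 to 27.3 in macrophages and fell by 2.08 on the log2 scale (SE 0.11, edgeR adjusted p = 5.19e-12). The groups did not overlap. Treml4, a myeloid receptor known to bind dying cells, was at 18.6 to 45.2 CPM in monocytes and 9.42 to 32.4 in macrophages and fell by 1.11 (SE 0.12, edgeR adjusted p = 2.13e-07, lower in 8 of 8 mice). Treml2, which encodes TLT-2, was at 22.8 to 43.1 CPM in monocytes and 21.6 to 32.7 in macrophages. Its fitted difference was -0.57 (SE 0.12, edgeR adjusted p = 0.000708), yet its CPM was lower in 5 mice and higher in 3. The differences thus followed the order of the genes on the chromosome, from the lowest at Trem1 through Trem3, Treml4 and Treml2 to the only positive one at Trem2. These are 5 points, and neighboring genes are not independent, so no test was made of this order. The differences of dendritic cells from monocytes did not follow it, with Trem3 lowest at -4.69 and Treml2 highest at -1.53.

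**Figure D2:**
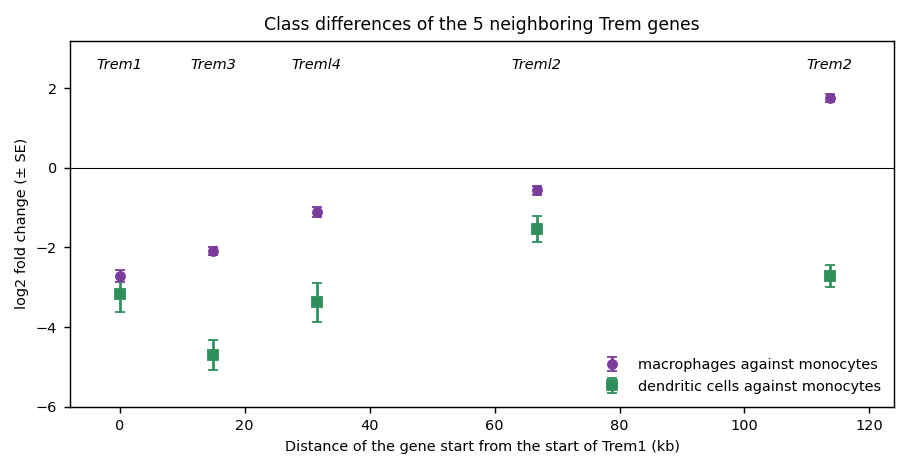
log2 fold change with its SE (vertical axis) of the 5 Trem genes between cell classes, over 8 mice, against the distance of each gene's start from the start of Trem1 in kb. For macrophages against monocytes the values run from -2.72 at Trem1 to 1.76 at Trem2, whereas all 5 are below 0 for dendritic cells against monocytes and do not follow the order of the genes.

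Of the signaling partners, Tyrobp was lower in macrophages, and Syk and Hcst did not pass the test. Tyrobp was at 4017 to 4544 CPM in monocytes and 3172 to 3617 in macrophages, which did not overlap, and fell by 0.53 on the log2 scale (SE 0.04, edgeR adjusted p = 2.07e-09, lower in 8 of 8 mice). Syk was at 126 to 151 CPM in monocytes and 133 to 183 in macrophages, a fitted difference of -0.01 (SE 0.05, edgeR adjusted p = 0.866). Its CPM was nevertheless higher in macrophages in 7 mice and lower in 1. Hcst was at 35.1 to 45.1 CPM in monocytes and 42.4 to 55.3 in macrophages, with a fitted difference of 0.10 (SE 0.08, edgeR adjusted p = 0.281) and a higher CPM in 8 of 8 mice. The calls of these 2 depended on the scaling. The fit scales each sum by TMM factors, and without them the median difference of all genes moved from 0.02 to 0.21, the called genes went from 2544 higher and 2698 lower to 4165 higher and 1701 lower, and Hcst (0.29, edgeR adjusted p = 0.00273) and Syk (0.18, edgeR adjusted p = 0.00800) were called higher. The other 6 members kept their direction and call without TMM factors. Their sizes were less firm, from -0.55 to -0.34 for Tyrobp and from -0.68 to -0.37 for Treml2 over the 20 settings.

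Finer steps of the C1qa count gave the same picture within the myeloid cells. The median over mice of Trem1 was 40.1 CPM in monocytes, 23.5 at 2 to 4 C1qa UMIs, 17.1 at 5 to 9, 8.24 at 10 to 29, 7.17 at 30 to 99 and 3.52 at 100 or more, where 17 UMIs were counted in 310 cells. Over the same steps Trem2 went from 82.1 through 104, 196, 259 and 334 to 510 CPM. Trem3 went from 67.8 to 13.7 at 30 to 99 UMIs and stood at 18.7 in the last step, on 75 UMIs. Tyrobp was lowest at 10 to 29 C1qa UMIs (3225 CPM) and stood at 3511 in the last step. Cells with more UMIs also reach more C1qa UMIs, so the steps are not independent of depth.

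**Figure D3:**
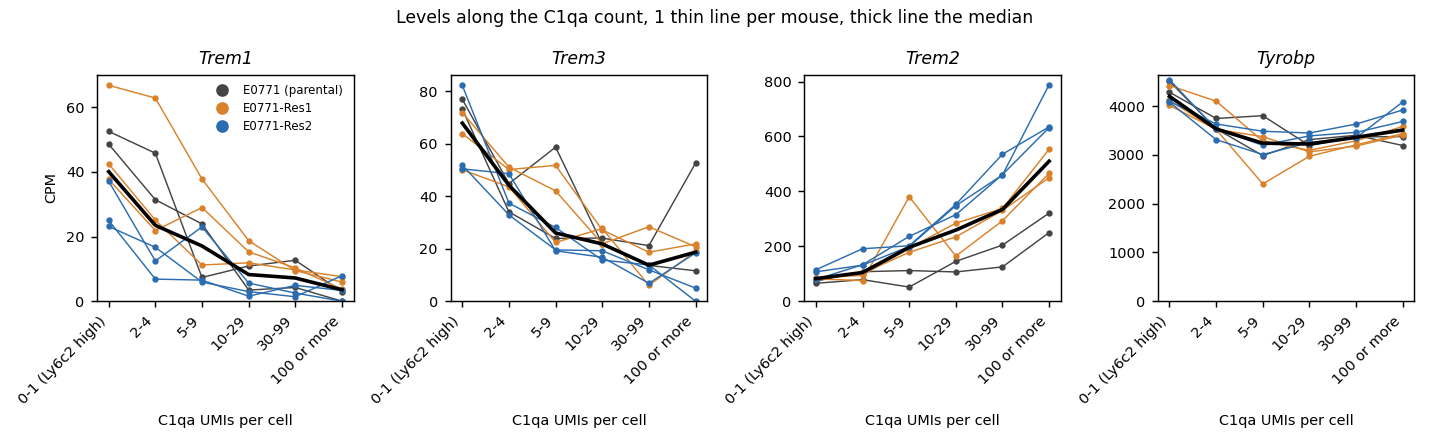
CPM of Trem1, Trem3, Trem2 and Tyrobp (linear axes from 0) in cells grouped by their number of C1qa UMIs, with 1 thin line per mouse colored by tumor line and a thick line at the median. The median of Trem1 falls from 40.1 to 3.52 CPM and that of Trem2 rises from 82.1 to 510 CPM.

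At equal depth the receptors marked different shares of cells. Cells below 2500 UMIs were left out and the others were thinned to 2500 UMIs. This kept 2652 of 2710 monocytes, 2327 of 2341 macrophages and 1732 of 2092 intermediate cells. Trem1 was then detected in 3.37% to 12.8% of monocytes (median 6.70%) and in 0% to 1.83% of macrophages (median 0.877%). The 0% was 0 of 103 macrophages of parental mouse 3, which allows a share of cells with a Trem1 UMI at this depth of up to 3.52% (exact 95% interval, counting error only). Before thinning, the macrophages of this mouse held 3 Trem1 UMIs. Trem2 was detected in 8.18% to 15.2% of monocytes (median 14.0%) and 22.6% to 49.5% of macrophages (median 39.0%). T cells, taken as a class that should lack both receptors, gave medians of 1.73% for Trem1 and 5.49% for Trem2, at a median depth of 6612.5 UMIs before thinning against 7153 in monocytes. The median Trem1 share of macrophages was thus below that of T cells, whereas both monocyte medians lay above those of T cells. By CPM the Trem1 median of macrophages (6.51) was above that of T cells (4.82), whose value rests on 13 UMIs. T cells were also limited to at most 1 C1qa and 1 Csf1r UMI, so they are a limited measure of background. The Trem1 share of macrophages was therefore not told apart from that of T cells. In NK and dendritic cells the median Trem1 share was 0%, below that of macrophages. Their ranges of 0% to 11.1% and 0% to 3.57% overlapped that of macrophages, so these classes do not settle the background. Without thinning the medians were 16.2% and 3.93% for Trem1 and 26.1% and 66.7% for Trem2 in monocytes and macrophages.

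Detection of one receptor did not go with that of the other. In 2652 thinned monocytes 151 had Trem1 alone, 323 Trem2 alone and 21 both, where independence within each mouse gives 21.8. In 2327 macrophages the numbers were 16, 906 and 5, against 8.00 if independent, and in 1732 intermediate cells 58, 316 and 7 against 10.6. With counts this small, these numbers are a description.

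All 8 members were called lower in dendritic cells than in monocytes, while 42.3% of 8218 genes differed in either direction with 19.9% higher and 22.4% lower. The CPM were lower in 8 of 8 mice for each member other than Treml2 (7 mice) and Hcst (6 mice). The log2 difference was -4.69 for Trem3 (SE 0.38), -3.38 for Treml4 (SE 0.49), -3.18 for Trem1 (SE 0.43), -2.71 for Trem2 (SE 0.27) and -1.53 for Treml2 (SE 0.33). For the receptors other than Trem2 and Treml2 these fits rest on 4 to 7 UMIs in 247 dendritic cells. The difference was -1.18 for Tyrobp (SE 0.09), -1.16 for Syk (SE 0.17) and -0.95 for Hcst (SE 0.32, edgeR adjusted p = 0.0160). Tyrobp was at 1645 to 2350 CPM in dendritic cells, below all monocyte values. The Hcst value rests on 36 UMIs and was not called with a Ly6c2 minimum of 10 (-0.68, edgeR adjusted p = 0.0620) or with class definitions per 10000 UMIs (-0.34, edgeR adjusted p = 0.410).

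Hcst separated T and NK cells from the myeloid and dendritic cells, whereas Tyrobp was apart from all of these in T cells only. Hcst was at 215 to 479 CPM in T cells and 256 to 578 in NK cells, above all values in myeloid and dendritic cells, which reached at most 55.3. Tyrobp was at 2666 to 4178 CPM in NK cells and 788 to 1590 in T cells, which did not overlap. The NK range overlapped those of macrophages (3172 to 3617 CPM), intermediate cells (3214 to 3843) and monocytes (4017 to 4544). NK cells had more Tyrobp than T cells by 1.66 on the log2 scale (SE 0.11, edgeR adjusted p = 6.37e-10, higher in 8 of 8 mice), in a comparison in which 11.9% of 4928 genes were called, 5.82% as higher and 6.09% as lower. Hcst did not pass the test between them (difference -0.03, SE 0.14, edgeR adjusted p = 0.954), nor did Syk (0.16, SE 0.26, edgeR adjusted p = 0.800). The other 4 receptors had too few UMIs for this fit, and Trem2 (0.18, SE 0.40, edgeR adjusted p = 0.862) rested on 42 UMIs in NK and 74 in T cells. Of the other DAP12 and DAP10 receptors, Klra8 (a class gene of the NK cells here), Klrk1 (NKG2D) and Klrc2 were higher in NK cells, Klrk1 by 1.43 (SE 0.15). How much of the Tyrobp signal of T cells came from free RNA of myeloid cells was not tested.

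By tumor line, Trem2 in macrophages was the member that differed between resistant and parental tumors. The parental mice had 208 and 140 CPM of Trem2 in macrophages, the E0771-Res1 mice 350, 389 and 281, and the E0771-Res2 mice 488, 426 and 432, on 128 to 1991 UMIs a mouse. All 6 resistant mice lay above both parental mice, and all E0771-Res2 mice above all E0771-Res1 mice. The difference between the resistant lines of 0.42 (SE 0.13) did not pass the test (edgeR adjusted p = 0.119). Trem1 and Trem3, lower in E0771-Res2, and Tyrobp and Hcst, higher in it, did not overlap between these lines in macrophages either. Among them only Trem1 passed the test, and the share of all genes without overlap is not given, so this is a description. The resistant mean of Trem2 was higher than the parental one by 1.12 on the log2 scale (SE 0.15, edgeR adjusted p = 0.00760), where 1.14% of 9123 genes were called and 0.274% were higher. The other 7 members did not pass the test in macrophages, the largest difference among them being -0.47 (Trem1, SE 0.38, edgeR adjusted p = 0.661). The Trem2 call was lost without parental mouse 3 (0.91, edgeR adjusted p = 0.127), the parental mouse with the lower value, and held in the other 20 settings, the one reported included. At like C1qa counts Trem2 separated the groups in each step from 5 UMIs upward, but not at 2 to 4 C1qa UMIs, where parental mice had 78.3 and 107 CPM and resistant mice 75.2 to 191. In macrophages with 30 to 99 C1qa UMIs it was at 204 and 125 CPM in parental mice and 293 to 535 in resistant mice, and with 100 or more at 321 and 250 against 450 to 789. At 5 to 9 C1qa UMIs the parental values rested on 7 and 14 Trem2 UMIs in 21 and 20 cells. The median depth in this step was 7619 and 6227 UMIs in parental mice and 4495.5 to 5522 in E0771-Res2. A like C1qa count was thus not a like share of the UMIs of a cell.

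In monocytes the parental mice had 65.1 and 73.2 CPM of Trem2, the E0771-Res1 mice 83.2, 83.7 and 80.9, and the E0771-Res2 mice 114, 107 and 79.0. The resistant mice lay above the parental ones without overlap, but the difference of 0.43 (SE 0.14) did not pass the test (edgeR adjusted p = 0.231). The share of all genes without overlap is not given here either, so this separation is a description. No member was called in monocytes, where 0.273% of 8805 genes were, as 12 higher and 12 lower with TMM factors and as 12 higher and 22 lower without. The difference in Trem2 between resistant and parental tumors was 0.68 larger in macrophages than in monocytes (SE 0.18), which did not pass the test of the interaction (edgeR adjusted p = 0.120, 0.307% of 9435 genes called, 0.0212% as higher). For Trem1 this interaction was 0.06 (SE 0.41).

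Trem1 differed between the resistant lines. In macrophages it was at 9.14, 11.1 and 10.0 CPM in E0771-Res1, on 52, 12 and 16 UMIs, and at 3.47, 3.87 and 2.79 CPM in E0771-Res2, on 13, 7 and 8 UMIs. The parental mice lay on both sides, at 10.4 CPM on 20 UMIs and 3.27 CPM on 3 UMIs. E0771-Res2 macrophages had less Trem1 than E0771-Res1 macrophages, with a log2 difference of -1.52 (SE 0.34, edgeR adjusted p = 0.0310), where 2.86% of genes were called, 1.6% as higher and 1.26% as lower. These macrophage levels are those whose share of cells with a Trem1 UMI was not told apart from that of T cells above. With counts this low the call was lost when any of 5 resistant mice was left out, at differences of -1.63 to -1.41 and edgeR adjusted p values of 0.0599 to 0.145 (E0771-Res1 mice 1 and 2, and E0771-Res2 mice 1 to 3). Trem1 in monocytes came to 52.5 and 48.6 CPM for the parental mice, 37.7, 66.8 and 42.5 CPM for E0771-Res1 and 25.0, 37.1 and 23.1 CPM for E0771-Res2. The E0771-Res2 values lay below all others, which is a description, since the share of all genes with such an order is not given. The difference from E0771-Res1 of -0.73 (SE 0.21) did not pass the test (edgeR adjusted p = 0.0966, 2.14% of genes called). E0771-Res1 mouse 2, with the highest Trem1, also had the highest sum of 8 neutrophil markers in monocytes (266 CPM against 126 to 162 in the other mice), whose part in this value was not tested. Without it the monocyte difference was -0.48 (edgeR adjusted p = 0.298).

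**Figure D4:**
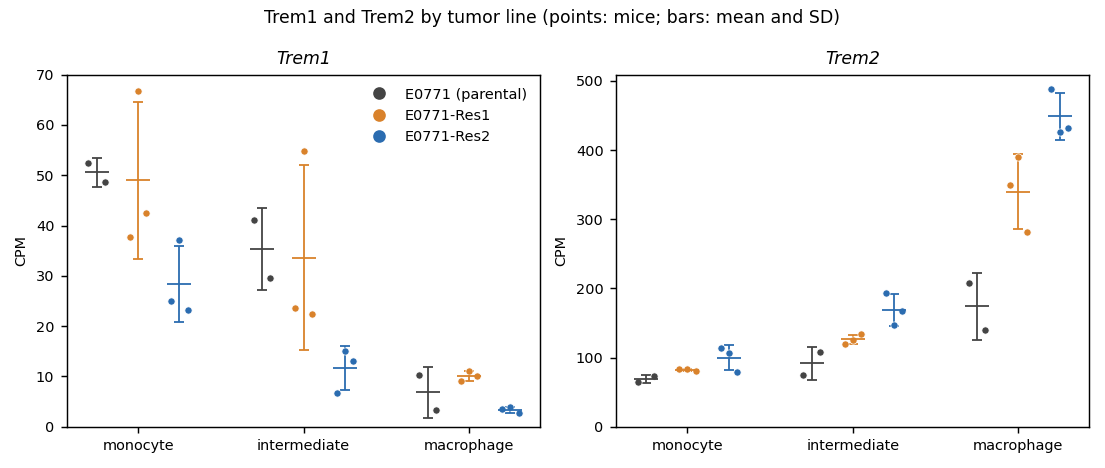
CPM of Trem1 and Trem2 (linear axes from 0) in monocytes, intermediate cells and macrophages of the 3 tumor lines, with points for mice and bars for the mean and SD (n = 2 parental, 3 E0771-Res1, 3 E0771-Res2). Trem2 in macrophages rises from 140 to 208 CPM in parental to 426 to 488 CPM in E0771-Res2 tumors, and Trem1 is lowest in E0771-Res2 tumors in monocytes.

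The ratio of the receptors, which needs no scaling between mice, is given as a description, since in monocytes neither receptor passed the test between lines. Per 100 Trem2 UMIs, parental monocytes had 80.7 and 66.4 Trem1 UMIs. The E0771-Res1 mice had 45.2, 79.8 and 52.5, whereas the E0771-Res2 mice had 21.9, 34.7 and 29.2. In macrophages the ratio was 4.99 and 2.34, then 2.61, 2.85 and 3.56, then 0.711, 0.909 and 0.646. The E0771-Res2 mice lay below all other mice in both classes, while the parental and E0771-Res1 ranges overlapped.

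Treml2, Trem3 and Treml4 did not pass the test between lines. Treml2 in monocytes was at 26.6, 22.8 and 25.0 CPM for E0771-Res1 against 32.7, 43.1 and 39.8 CPM for E0771-Res2, which did not overlap (0.62, SE 0.17, edgeR adjusted p = 0.0753), with 38.4 and 27.8 in parental tumors. The share of all genes without overlap is not given, so this too is a description. Trem3 in macrophages was at 21.4, 24.0 and 15.0 CPM for E0771-Res1 against 13.3, 13.8 and 11.9 CPM for E0771-Res2 (-0.62, SE 0.23, edgeR adjusted p = 0.189). In the comparisons fitted, resistant against parental and E0771-Res2 against E0771-Res1, Tyrobp, Hcst and Syk differed by at most 0.23 in size in either class, and Tyrobp by at most 0.12 (SE 0.07, E0771-Res2 against E0771-Res1 in macrophages).

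Other markers moved with the lines in the same cells. The 8 dendritic markers, which include class II genes, summed to 20284 and 20685 CPM in parental macrophages, against 12349 to 23664 CPM for E0771-Res1 and 7668 to 8299.8 CPM for E0771-Res2. The 6 monocyte markers summed to 1902 and 1947 CPM in parental macrophages, against 904 to 1696 CPM for E0771-Res1 and 896 to 1183 CPM for E0771-Res2. Erythroid genes summed to 153 CPM in the macrophages of parental mouse 1 and to 1.09 to 12.7 in the others, 8 tumor epithelial genes to 7.79 to 15.3 in all, and 8 neutrophil markers to 67.5 to 116 in all. Their part in the Trem values was not tested. Without parental mouse 1 Trem2 remained higher in resistant macrophages (1.45, edgeR adjusted p = 0.0185).

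The wider pathway was read from lists of ligands, receptors that share the adaptors, adaptors, kinases and effectors, inhibitors and sheddases, and genes known to go with TREM2 or with TREM1. These lists were chosen with earlier results of these data known, so no count from them is independent of the data. Between macrophages and monocytes, 2 of 5 tested ligands were higher and 3 lower (median -0.14, against 0.02 for all genes). Since 27% of all genes were higher and 28.6% lower in this comparison, such small counts are a description of the lists. Apoe, a lipoprotein that TREM2 binds, was higher by 2.11 (SE 0.08), and Pglyrp1, a peptidoglycan recognition protein that TREM1 binds, was lower, at -2.85 (SE 0.13). Receptors that share DAP12 or DAP10 were higher in 2 and lower in 7 of 9 tested (median -0.42), led by Siglech at -2.90, Klrk1 at -0.97, Sirpb1c at -0.66 and Sirpb1a at 0.52. Klrk1 encodes NKG2D, known from NK and T cells. Monocytes were limited only to under 2 genes of each lymphoid class and of the dendritic class. The part of other cell types in the Siglech and Klrk1 values was not tested. Of 6 adaptors tested 1 was higher and 2 were lower (median -0.05), with Blnk, a SYK substrate, at 1.78. Kinases and effectors were higher in 1 and lower in 10 of 15 (median -0.36). The largest were Malt1 and Bcl10, partners of CARD9 downstream of SYK, at -1.50 and -0.94, and the Src family kinases Fgr and Fyn at -0.90 and -0.81. Inhibitors and sheddases were lower in 2 of 7 (median -0.01), with Dok3 at -0.28 and Ptpn6 at -0.17.

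Genes known to accompany TREM2 in lipid-handling macrophages were higher in 8 and lower in 3 of 12 (median 0.64), against 27% higher and 28.6% lower over all genes. Apoe, also counted among the ligands and the macrophage markers, was followed by the cholesterol exporter Abca1 at 1.73, the lipase Lpl at 1.43 and the tetraspanin Cd63 at 1.32. The 3 that were lower, named after their values were seen, were Spp1 (osteopontin) at -1.24, Cd9 at -0.58 and Lgals3 at -0.18. Inflammatory genes known to respond to TREM1 were lower in 10 of 12 (median -0.75), with Il6 at -2.49, Plaur at -1.49, Ptgs2 at -1.22 and Il1b at -0.81. Without TMM factors the higher and lower counts became 2 and 1 for ligands, 2 and 5 for receptors, 3 and 0 for adaptors, 4 and 8 for kinases, 4 and 0 for inhibitors, 8 and 2 for the TREM2 genes and 0 and 9 for the TREM1 genes. Over all 9435 genes they were then 4165 and 1701. The sign of the small differences of Ptpn6, Lcp2, Grb2, Lgals3 and App turned with the scaling.

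Between the resistant lines the called genes of these 2 lists lay on opposite sides, which was not tested for the lists as such. The lists were chosen with earlier results of these data known, so the counts are not independent of the data. In E0771-Res2 against E0771-Res1 macrophages, 5 of 12 TREM2 genes were higher and none lower (median 0.29, all genes 0.00), with Gpnmb at 1.91, Fabp5 at 0.91, Ctsb at 0.56 and Lpl at 0.50. Of 11 TREM1 genes 4 were lower and none higher (median -0.64), namely Nlrp3 at -0.95, Cxcl2 at -0.93, Il1b at -0.69 and Ptgs2 at -0.64. Over all genes 1.6% were higher and 1.26% lower. Of 7 dendritic markers tested in the same macrophages 3 were lower (median -0.88), and their part was not tested. In monocytes 4 of 12 TREM2 genes were higher (median 0.20), Gpnmb at 2.32, Fabp5 at 1.08, Ctsd at 0.74 and Ctsb at 0.63, and 4 of 12 TREM1 genes lower (median -0.54), Il1b at -0.83, Ptgs2 at -0.80, Nlrp3 at -0.76 and Cxcl2 at -0.59, against 1.45% of all genes higher and 0.681% lower. In each of the remaining pathway lists at most 2 genes passed, among them the DAP12 receptor Clec5a, lower in both macrophages (-0.65) and monocytes (-0.69).

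Against parental tumors, resistant macrophages had 2 of 12 TREM2 genes higher, Lpl at 1.39 and Apoe at 0.59, and 1 of 11 TREM1 genes lower, Il1b at -0.72. Over all genes 0.274% were higher and 0.866% lower in these macrophages. Klrk1 (-1.43) and Fgr (-0.51) were lower, and no adaptor or inhibitor of the lists passed. In resistant monocytes Gpnmb was higher by 1.33 (1 of 12 TREM2 genes) and 3 of 12 TREM1 genes were higher, the chemokines Cxcl2 at 0.97, Ccl3 at 0.89 and Ccl4 at 0.69. Over all genes 0.136% were higher and 0.136% lower in these monocytes. No gene of the other pathway lists passed there. These comparisons share the parental mice, and macrophages and monocytes come from the same mice.

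Monocytes with Trem1 alone and with Trem2 alone were compared within mice at the same depth of 2500 UMIs. They numbered 13 to 33 and 23 to 64 cells per mouse. Macrophages could not be compared in this way, since no mouse had more than 4 with Trem1 alone. Of 1382 genes tested 10.4% were called (4.99% higher and 5.43% lower in cells with Trem1), including the 2 genes that defined the groups, which leaves 142. Among called genes with the same sign in every mouse and an average log2 CPM of at least 5, the 10 highest were Ptgs2 (cyclooxygenase 2) at 1.47 (SE 0.24), Thbs1 (thrombospondin 1) at 1.44 (SE 0.21), Vcan (versican) at 1.12 (SE 0.22), Ndel1, Mcemp1, Ccnd3, Tiparp, Csf2rb, Plaur at 0.96 and Srgn at 0.92. Under the same conditions the 10 highest in cells with Trem2 were Il7r at -3.10 (SE 0.46), Gpnmb at -3.05 (SE 0.30), Pf4 at -2.66 (SE 0.46), Ms4a7 at -2.49 (SE 0.31), Cd72, Ccl12, Cd63 at -1.63, the fatty acid binding protein Fabp5 at -1.63, P2rx4 and the class II gene H2-Eb1 at -1.57. Their edgeR adjusted p values were 0.0198 or less, and the same sign in every mouse was a condition for naming them.

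**Figure D5:**
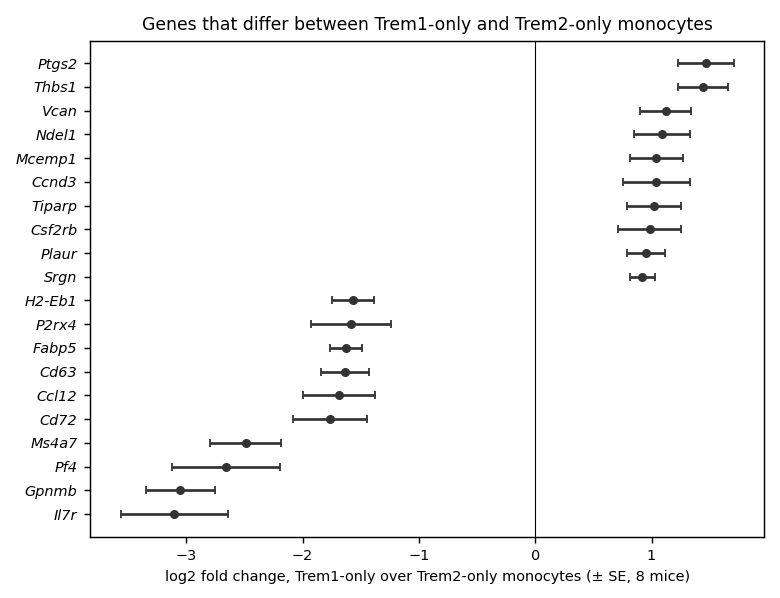
log2 fold change with its SE (horizontal axis) of the 20 named genes between monocytes with Trem1 but no Trem2 UMI and monocytes with Trem2 but no Trem1 UMI, over 8 mice at 2500 UMIs per cell. Ptgs2 and Thbs1 lead on the Trem1 side at 1.47 and 1.44, and Il7r and Gpnmb on the Trem2 side at -3.10 and -3.05.

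In this comparison 8 of 10 tested TREM2 genes were lower in cells with Trem1 (median -1.36, all genes 0.02) and none higher, and 5 of 10 TREM1 genes were higher (median 0.62) and none lower. Both lists were chosen with earlier results of these data known, so the counts are not independent of the data. Besides those named above, Lpl was at -1.70 (lower in 7 of 8 mice), Il1b at 0.81 and Cxcl2 at 0.70. All 3 macrophage markers tested were lower and 5 of 6 monocyte markers higher in cells with Trem1, C1qb at -1.05 and Fn1 at 1.02 among them, although all cells had at most 1 C1qa UMI. All 3 dendritic markers tested were lower in cells with Trem1 as well (median -1.17), and their part in the difference was not tested. Tyrobp (0.19, SE 0.09, edgeR adjusted p = 0.235) and Syk (0.04, SE 0.32) did not pass. With the groups cut on a single UMI, a cell without a Trem1 UMI may still express it.

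The genes most like Trem1, Trem2, Tyrobp and Hcst over the 48 sums of mouse and class were found by Pearson's r of log2 CPM. They are a description, since sums of one mouse are not independent. Among 4175 candidates those nearest to Trem1 were Prdx5 (0.80), F13a1 (0.77), Lyz2 (0.77), Esd (0.75) and Vcan (0.75). Those nearest to Trem2 were Blvrb (0.88), Adgre1 (0.87), Slc11a1 (0.87), Ms4a7 (0.86) and Plin2 (0.86). For Tyrobp they were Rnf130 (0.88), Fcer1g (0.87), which encodes another adaptor with an activation motif, Plcg2 (0.82), Anxa1 (0.78) and Plek (0.78). For Hcst they were Rassf5 (0.91), Rinl (0.90), Rac2 (0.89), Macf1 (0.89) and Shisa5 (0.89). Among the members, r was highest for Trem3 with Treml4 (0.70), and 0.37 for Trem1 with Trem2 and -0.30 for Tyrobp with Hcst. The sums include dendritic, T and NK cells, where Trem1 rested on 7, 13 and 14 UMIs and Trem2 had its lowest medians. Within monocytes, intermediate cells and macrophages, Trem1 and Trem2 ran in opposite orders in each mouse.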

How the data were processed

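CD45+ cells of 8 E0771 tumors were labeled per mouse (CellPlex, 3′ libraries). The authors counted UMIs with Cell Ranger 6.1.2 against mm10, and the deposited matrices hold raw counts per gene and cell, without normalization. Used here were these counts, with the study's cell filter (500 to 6000 genes, under 10% mitochondrial UMIs). Mitochondrial, Rpl, Rps and Gm genes (8652 genes, 20.6% of UMIs) and the 9 tag features were left out, and no barcode was shared between mice. Scrublet in scanpy 1.11.5 called 31 of 11430 cells (0.271%), which was taken as a failed call, so doublets were kept. Removal of the cells with the highest 5% of scores was an alternative.

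Counts were summed per mouse and class (at least 10 cells) and tested with edgeR 4.0.16 in R 4.3.3 (TMM, filterByExpr, quasi-likelihood), with Benjamini-Hochberg adjustment over all genes tested and a threshold of 0.05. Class comparisons had mouse as a block, and line comparisons used 1 fit over the 3 lines. CPM are per 1000000 summed UMIs of a class, and 3′ UMI counts do not scale with transcript length. Fold changes are on edgeR's log2 scale. The SE given with them is the absolute log2 difference divided by the square root of the quasi-likelihood F statistic, so it is approximate, above all at low counts. DESeq2 1.42.0, other filters, class definitions and thinning depths, and leaving out each mouse were alternatives. On simulated data, a log2 change of 1.5 was recovered for 80% of changed genes in resistant against parental macrophages, 85% in E0771-Res2 against E0771-Res1 macrophages and 36% for the interaction. The simulation used a single mean profile, a dispersion of 0.05 for every gene and no mouse effect. Its change was larger than the 1.12 of Trem2 in resistant macrophages, so these shares are not the power for the members. The members and lists were chosen with earlier results of these data known. The comparison of Trem1-only with Trem2-only cells was planned for macrophages and moved to monocytes after the cell numbers were seen. Besides the members, up to 4 genes per list with the largest changes past the threshold are named, and for the Trem1-only comparison the 10 largest per direction with the same sign in every mouse and an average log2 CPM of at least 5. The likeness search used a prior count of 2 and the same minimum. Each mouse carried 1 tumor, and replicates differed by more than counting noise. GENCODE positions and RefSeq sequences are of GRCm38.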

Additional observations from a re-analysis of the deposited data

Results flagged for a closer look

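Trem1 in macrophages differed between the resistant lines by a test of the difference itself, at -1.52 on the log2 scale for E0771-Res2 against E0771-Res1 (edgeR adjusted p = 0.0310). It rested on 28 UMIs in 3 E0771-Res2 mice and 80 UMIs in 3 E0771-Res1 mice.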

How the results depend on the processing

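Of 17 member differences past the threshold, 14 stayed there with the same direction under every alternative that gave an adjusted p. The exceptions were Hcst in dendritic cells, Trem2 in resistant macrophages and Trem1 between the resistant lines in macrophages, whose values stand in the report. Trem1 there was called in 13 of 21 settings, and also lost the call with a C1qa minimum of 20 (-1.28, edgeR adjusted p = 0.130) and without the highest doublet scores (-1.52, edgeR adjusted p = 0.101). Of 45 differences not called, 9 were called under some alternative and 24 changed sign under at least 1 while uncalled, which was not counted as a reversal. The exception was Syk between macrophages and monocytes, which turned to 0.18 and was called without TMM factors, a setting added after seeing the data.

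Counts of genes past the threshold moved as follows, and the cause was not tested. Without a filter on low counts they were 448 (104 with it) for resistant against parental macrophages, 216 (24) for monocytes, 617 (261) and 432 (188) for E0771-Res2 against E0771-Res1 macrophages and monocytes and 133 (29) for the interaction. In resistant against parental monocytes a Ly6c2 minimum of 3 gave 38 and definitions per 10000 UMIs gave 1. In E0771-Res2 against E0771-Res1 monocytes a Ly6c2 minimum of 10 gave 110 and definitions per 10000 UMIs gave 120. The interaction had 11 with DESeq2, 19 without TMM factors, 18 with a C1qa minimum of 20, 19 with a Ly6c2 minimum of 10 and 5 with definitions per 10000 UMIs. Trem1-only against Trem2-only monocytes had 84 with DESeq2 in place of 144, 52 at 1500 UMIs and 243 at 4000 UMIs.

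Leaving out 1 mouse gave 4792 to 5168 genes for macrophages against monocytes, 3102 to 3482 for dendritic cells, 428 to 605 for NK against T cells, 4 to 330 and 0 to 98 for resistant against parental macrophages and monocytes, 90 to 298 and 52 to 294 for E0771-Res2 against E0771-Res1, 1 to 100 for the interaction and 102 to 138 for Trem1-only against Trem2-only monocytes. The count of 0 (edgeR, 655 genes at an unadjusted p under 0.05) came in resistant against parental monocytes without parental mouse 1; DESeq2 was run only with all mice, where it called 35. Where a line kept 1 mouse its spread was assumed equal to that of the others.

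Whether replicate numbers pair the mice was not decided. Deviations of same-numbered mice correlated at -0.07 to 0.10, and not every mouse correlated best with its own number. Between E0771-Res1 and E0771-Res2 monocytes, same-numbered pairs had 0.002, 0.09 and 0.10, and the other pairs -0.10 to 0.007. Deviations within groups of 2 or 3 mice are not independent of each other, so these correlations cannot exclude a pairing. With replicate as a block, 114 genes were called in resistant against parental monocytes and 292 in E0771-Res2 against E0771-Res1 monocytes, and calls were gained by Trem1 in both (-0.69, edgeR adjusted p = 0.0273, and -0.75, edgeR adjusted p = 0.00710) and by Trem2 in E0771-Res2 against E0771-Res1 macrophages (0.43, edgeR adjusted p = 0.0439). The 2 parental mice and low counts of Trem1 in macrophages limit the precision.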
